A study of Rattus norvegicus with 150 samples.

Results

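The globin transcripts described here are the messages of haemoglobin: 2 alpha globin genes, ENSRNOG00000029886 and ENSRNOG00000047321, and the beta globin gene Hbb, ENSRNOG00000058105. They were chosen by identifier and are 3 of the 32545 genes in the count table. They are called below the first alpha gene, the second alpha gene and Hbb. The libraries came from the gastrocnemius, a calf muscle, of male Sprague-Dawley rats with 4 implanted metal cylinders per rat, 2 in each limb. Tantalum (Ta) was the sham metal, and cobalt (Co), depleted uranium (DU), nickel (Ni) and a metal labelled P were compared with it. Lead (Pb) is among the sequenced metals in the design text, and P is read as lead but written as labelled. Ta, Co, P and DU were sampled at 1, 3, 6 and 12 months after surgery and Ni at 1, 3 and 6 months, giving 150 libraries in 17 groups of 8 and 2 groups of 7 (Ta at 1 month and Co at 6 months). Every group, Ta included, had the surgery and an implant, so no group shows muscle without a foreign body. Each time was a separate cohort of rats bought at about 30 days of age, so time after surgery, the age of the rat and the cohort cannot be told apart.

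Haemoglobin carries oxygen in red cells and is built from a pair of alpha and a pair of beta chains, each holding a haem group. Globin messages are made in bone marrow, where the red cell precursors form, and young red cells leave the marrow with some of that message still in them. Muscle fibres make myoglobin, a related protein of another gene, and not haemoglobin in quantity, so globin message in a piece of muscle is usually read as a measure of the blood in it. Cobalt has a known link to red cells: cobalt salts stabilise the hypoxia-inducible factors and raise erythropoietin, the hormone that drives red cell formation. In these bulk libraries, less blood in the piece and less globin message per red cell cannot be told apart.

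The stretch just upstream of the start of each gene shows how alike the alpha genes Hba-a1 and Hba-a2 are and how Hbb differs from them. The promoter sequences are from RefSeq on GRCr8. They were matched by symbol for Hbb, Hba-a1 and Hba-a2, and the RefSeq table also holds another alpha gene, Hba-a3. No source used here says which alpha symbol belongs to which of the 2 alpha identifiers, so Hba-a3 could be one of them. Each line gives the 120 bases before the start of the gene, all 3 on the minus strand, 5′ to 3′, with capitals marking matches, on either strand, to the CCAAT box (searched as CCAAT), the TATA box (searched as TATAA) and the CACCC box of globin genes (searched as CACACCC).
Hbb, chr1:167663722-167663841: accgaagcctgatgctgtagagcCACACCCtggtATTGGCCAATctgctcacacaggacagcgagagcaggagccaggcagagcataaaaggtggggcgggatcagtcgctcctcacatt
Hba-a1, chr10:15842581-15842700: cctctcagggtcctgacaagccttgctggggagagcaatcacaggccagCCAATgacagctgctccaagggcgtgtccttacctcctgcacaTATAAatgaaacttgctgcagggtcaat
Hba-a2, chr10:15829139-15829258: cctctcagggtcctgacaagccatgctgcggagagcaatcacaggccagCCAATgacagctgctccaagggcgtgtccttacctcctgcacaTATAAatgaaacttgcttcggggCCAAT
Hba-a1 and Hba-a2 were identical at 115 of the 120 bases, position by position without gaps. By the same count Hba-a3 was identical to Hba-a1 at 30 bases, to Hba-a2 at 31 and to Hbb at 32. The TATAA match began 30 bases before the start in Hba-a3 and 28 in Hba-a1 and Hba-a2. The count makes no allowance for such an offset. CCAAT lay in all 3 windows and in 19.9% of 33469 RefSeq promoters over the same window. TATAA lay in both alpha windows and not in that of Hbb, against 12.8% of all promoters, and CACACCC lay in that of Hbb alone of the 3, against 3.11% of all. Only exact strings were searched, so variants of a box were missed and the lack of TATAA does not show that Hbb has no TATA box. Nor does a match show that a box is in use. GATAA, searched because it is the core of the motif bound by the red cell factor GATA1, lay in none of the 3 and in 11.2% of all promoters. In the Hbb window the CCAAT matches on the 2 strands lie side by side and share no base.

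Globin message was a minor part of every library. Total counts ran from 12674115 to 21921859 per library, and the 3 genes together took 0.00464% to 0.248% of them, with a median of 0.0123%. The first alpha gene had 388 to 10288 counts in a library, the second 145 to 4759 and Hbb 148 to 33678, so all 3 were measured in every library and passed the filter on low counts in each of 39 comparisons. In CPM, which are counts scaled by the library total and by TMM factors that correct for a few abundant genes, the first alpha gene had a lowest, median and highest library of 17.8, 63.2 and 800.0. The second alpha gene had 7.25, 25.1 and 367, and Hbb 6.67, 33.0 and 2774. CPM takes no account of transcript length, so the 3 levels are not compared with each other. In these CPM both extremes were DU libraries for every one of the 3 genes. The lowest was a 12-month DU library, replicate 5, and the highest was replicate 2 of DU at 3 months. Per total counts, without TMM factors, this held for Hbb alone. There replicate 5 of P at 12 months was highest in the alpha genes, at 571 and 264 CPM beside 503.5 and 231 in that 3-month DU library. The lowest were then replicate 4 of Ta at 12 months for the first (24.2) and replicate 1 of Ta at 6 months for the second (9.39).

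Ordered by the median of the group in CPM with TMM factors, Ni at 1 month stood highest for all 3 genes. For the alpha genes this rank depended on the scaling. Per total counts, without TMM factors, the middle Ta library at 1 month had 80.77 and 34.99 CPM. Both middle Ni libraries of that time lay lower, at 74.59 and 77.73 for the first and 30.35 and 33.85 for the second. Group means with TMM factors were also higher in Ta at 1 month, 101.2 and 42.88 CPM beside 86.02 and 36.98 in Ni. In medians the first alpha gene ran from a median of 47.8 CPM in Ta at 6 months to 89.6 in Ni at 1 month, 1.87 times as high. The second alpha gene ran from 18.3 in DU at 6 months to 36.4, 1.99 times, and Hbb from 18.9 in Co at 1 month to 67.4, 3.56 times. Neighbours in the order could not be separated: for each gene the range of every group overlapped that of the group next to it. Libraries of 1 group could span more than all the group medians: DU at 12 months ran from 17.8 to 127 CPM in the first alpha gene, 7.25 to 51.6 in the second and 6.67 to 90.2 in Hbb.

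**Figure D1:**
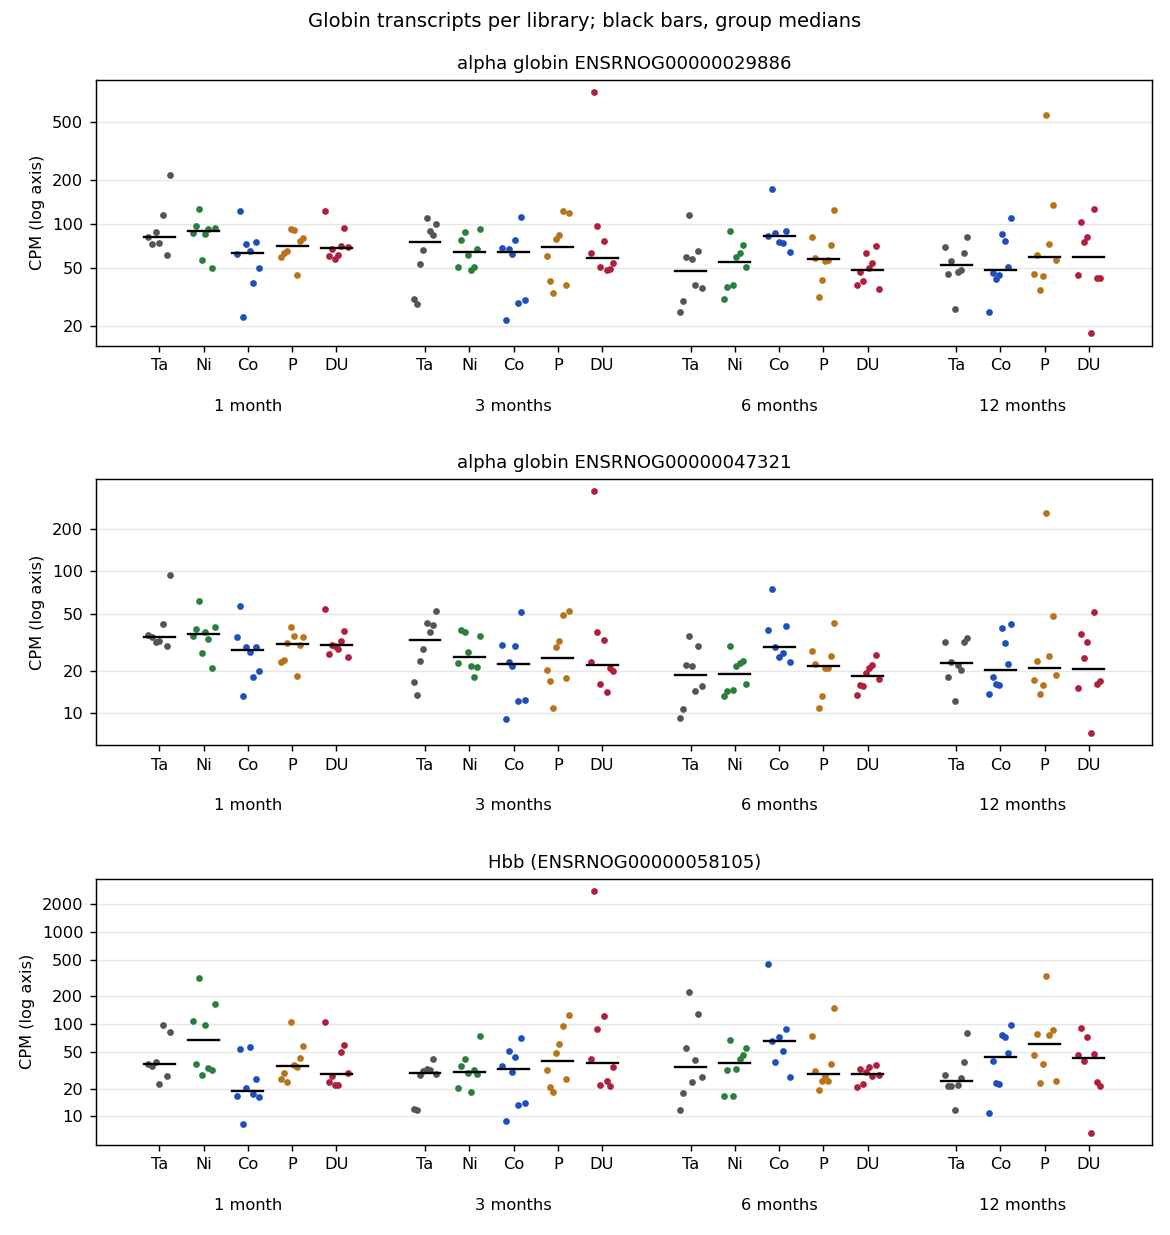
Level of the 2 alpha globin genes and Hbb in each of the 150 libraries, in CPM on a log axis, with 1 panel per gene and the groups set out by time and metal. Points are libraries and black bars group medians; the single highest point in each panel is replicate 2 of DU at 3 months, at 800.0, 367 and 2774 CPM.

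A few libraries stood far above the rest of their groups. Replicate 2 of DU at 3 months had 800.0 CPM of the first alpha gene against 48.3 to 96.7 in the other 7 libraries of its group, 367 against 14.2 to 37.2 for the second, and 2774 against 21.1 to 124 for Hbb. That library also differed from its group over the whole transcriptome, with a median correlation to the others of 0.415, where the median over all libraries was 0.961. Replicate 1 of Co at 6 months was high in Hbb alone: 451 CPM against 26.9 to 88.0 in the others, with 82.2 CPM of the first alpha gene inside the range of its group. In it the 10 most abundant genes took 47.7% of counts, the most of any library, and its TMM factor was 0.459, the lowest of any. Per total counts, without TMM factors, its Hbb was 207 CPM and that of the DU library 1746 CPM. On that scale the Co library was the lowest of its group in both alpha genes, at 37.7 and 17.8 CPM. The next lowest was replicate 4, at 62.2 and 20.85. Replicate 5 of P at 12 months had 554 CPM of the first alpha gene, 256 of the second and 334.5 of Hbb, and its correlation with its group, 0.954, was not unusual. Results that rest on the DU or the Co library are given with and without it below.

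The 2 alpha genes rose and fell together across libraries, and Hbb followed them less closely. Taken as deviations from the group means of log2 CPM, which removes metal and time, the 2 alpha genes had a Pearson r of 0.97 and a Spearman rho of 0.96 over the 150 libraries. Hbb had r = 0.84 and rho = 0.83 with the first alpha gene, and r = 0.84 and rho = 0.82 with the second. Without the 2 libraries farthest from the median, replicate 2 of DU at 3 months and replicate 5 of P at 12 months, r was 0.96, 0.81 and 0.80 for these pairs. All 21 relations computed (3 pairs over levels, over deviations and within each metal) passed, with an adjusted permutation p of at most 0.00012, and for the 3 pairs over all libraries the permutation p was 1e-05, the smallest that 100000 resamples can give (adjusted p = 1.17e-05). Within single metals r ran from 0.93 to 0.99 for the alpha pair and from 0.72 to 0.94 for Hbb with an alpha gene. The points share each library's depth and TMM factor, and alpha genes of near-identical sequence may share reads, whose part in these relations was not tested.

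**Figure D2:**
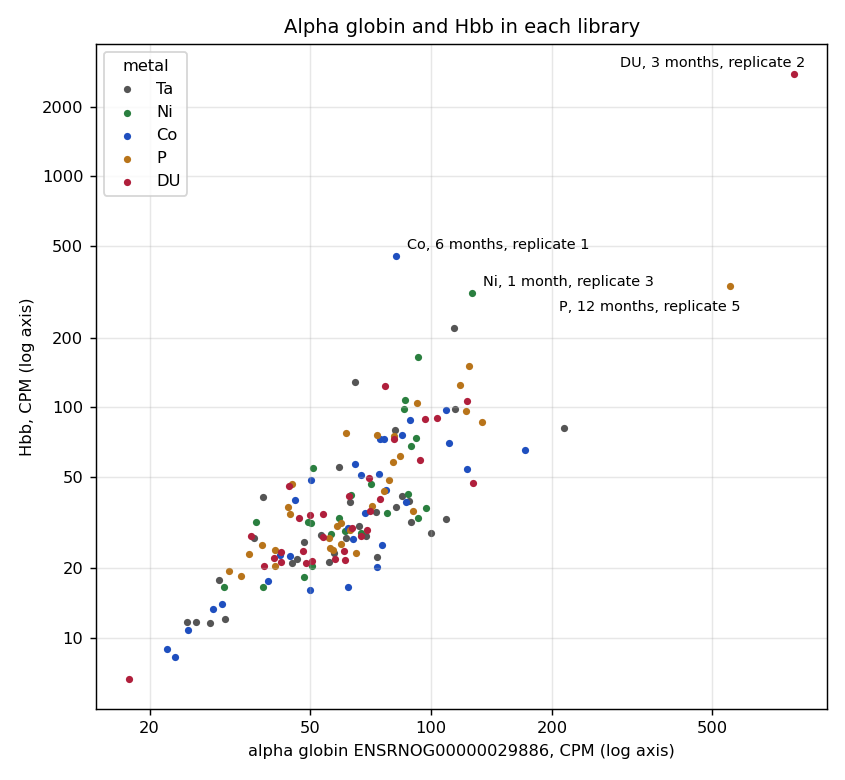
Hbb against the first alpha globin gene in each library, in CPM on log axes, coloured by metal. The 150 points form a single band (r = 0.84 for deviations from group means), with replicate 2 of DU at 3 months at its upper end and replicate 1 of Co at 6 months above it, at 451 CPM of Hbb and 82.2 of the alpha gene.

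The balance of beta to alpha message was not fixed. The counts of Hbb over the summed counts of the alpha genes, a ratio within each library that no scaling factor touches, had a lowest, median and highest value of 0.172, 0.393 and 3.73. The ratio of the 2 alpha genes was held more tightly, at 1.75, 2.48 and 3.4. Hbb exceeded the alpha sum in 7 of the 150 libraries, of which 2 were of Ta at 6 months (1.48 and 1.35), 2 of Ni at 1 month (1.66 and 1.24), 2 of DU at 3 months (2.38 and 1.13) and 1 of Co at 6 months (3.73). All 7 had TMM factors between 0.459 and 0.739, and only 8 libraries of the 150 had a factor under 0.75. In 6 of the 7 the 10 most abundant genes took 34.3% to 47.7% of counts, where the median library had 28.3%, and in replicate 2 of DU at 3 months they took 25.6%. Among groups the median ratio was lowest in Co at 1 month, 0.237, and highest in Ni at 1 month, 0.623, with Co at 12 months at 0.612 and Ta at 6 months at 0.598. Ta itself moved from 0.313 at 1 month to 0.267 at 3, 0.598 at 6 and 0.328 at 12 months, so the sham metal covered most of the span seen among all groups. The part of the abundant genes in the ratio was not tested.

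**Figure D3:**
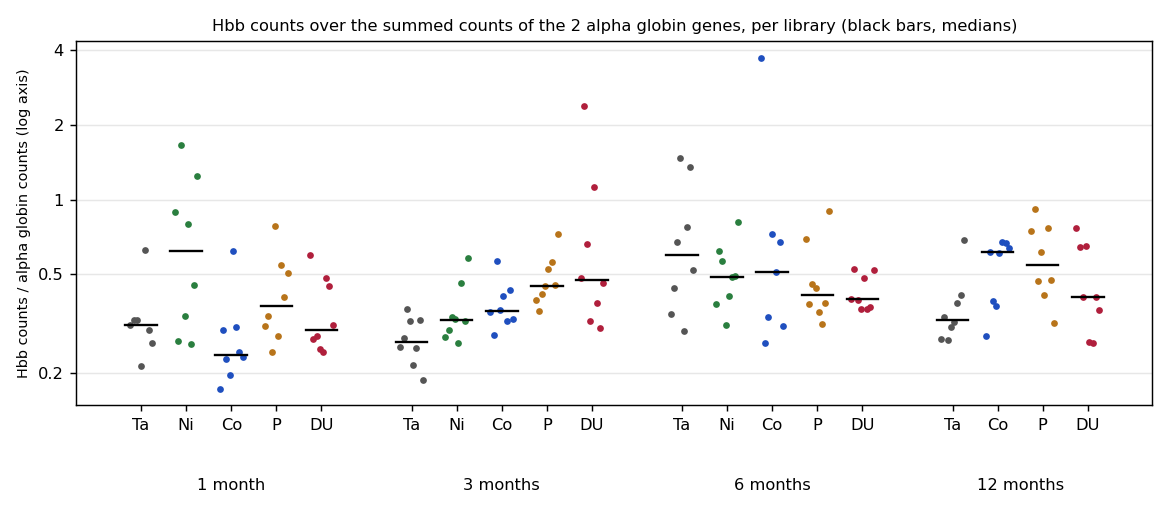
Hbb counts divided by the summed counts of the 2 alpha globin genes in each library, on a log axis, by time and metal. Points are libraries and black bars medians; 7 libraries lie above 1, the highest being replicate 1 of Co at 6 months at 3.73.

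No globin gene passed the test against Ta for any metal at any time. Over 15 comparisons, edgeR's quasi-likelihood test called 0 of 45 member tests at an adjusted p under 0.05, and 9 of the 45 had an unadjusted p under 0.05. DESeq2 also called 0, limma voom with quality weights called 4, all of alpha genes, and edgeR with all libraries in 1 model called 3, all in DU at 3 months. Among the voom calls were both alpha genes in Co at 6 months, where voom called 573 of 12036 genes. Another was the second alpha gene in DU at 3 months, where voom called 4664 of 12158. The share of all genes called in the 1 model is not set beside its 3 calls. The share of all genes called by edgeR in the same comparisons was 6.44% for Co at 3 months, 2.38% for P at 12 months, 0.338% for P at 3 months, 0.0083% for Co and 0.00826% for DU at 12 months, and 0% in the other 10. Across those 10 comparisons, DESeq2 called 1 to 1239 genes and voom 0 to 4664, and edgeR put 328 to 3223 genes under an unadjusted p of 0.05. A member test without a call is therefore the usual outcome in most of them. Since the labels tie no library to a rat, these p-values measure the spread between libraries.

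Cobalt, the metal tied to red cell formation, was compared with Ta first. At 1 month the first alpha gene had a lowest, median and highest library of 23.1, 63.5 and 123 CPM with Co and 61.7, 81.9 and 215 with Ta. The second alpha gene had 13.2, 28.1 and 57.3 with Co and 29.7, 34.3 and 94.4 with Ta, and Hbb had 8.29, 18.9 and 57.0 with Co and 22.5, 36.8 and 98.6 with Ta. All 3 medians were lower with Co, and the ranges overlapped for every gene. The log2 fold changes were -0.67 ± 0.33 (SE, n = 8 and 7; edgeR adjusted p = 0.365), -0.59 ± 0.32 (adjusted p = 0.411) and -0.86 ± 0.43 (adjusted p = 0.370). Their 95% intervals ran from -1.36 to 0.03, -1.26 to 0.08 and -1.76 to 0.04, so falls of more than 2-fold and no change both lie within them. Leaving out 1 library moved the alpha genes from -0.88 and -0.82 (without replicate 2 of Co) to -0.35 and -0.25 (without replicate 8 of Ta), and Hbb from -1.11 (without replicate 5 of Co) to -0.59 (without replicate 5 of Ta); none passed.

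At 3 months the ranges of Co and Ta overlapped in all 3 genes, and the order of the medians depended on the gene. The first alpha gene had 22.1, 64.7 and 111 CPM with Co (lowest, median, highest) and 28.2, 75.5 and 109 with Ta. The second had 9.15, 22.1 and 51.8 with Co and 13.5, 33.1 and 52.3 with Ta, and Hbb 8.92, 32.4 and 70.3 against 11.6, 29.6 and 41.3. The 3 Co libraries lowest in the first alpha gene, replicates 2, 6 and 8 at 22.1, 28.8 and 30.4 CPM, had the TMM factors 1.89, 1.69 and 1.72, which divide their CPM, and per total counts they had 41.8, 48.6 and 52.1, with the other 5 at 65.4 to 128. Log2 fold changes against Ta were -0.25 ± 0.35, -0.42 ± 0.35 and 0.31 ± 0.39 (SE, n = 8 and 8; edgeR adjusted p = 0.658, 0.462 and 0.627). By library totals without TMM factors they were 0.07, -0.09 and 0.61, and that scaling moved the median over all genes from -0.03 to 0.38. Under both scalings the alpha genes lay below the median of all genes and Hbb above it.

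At 6 months both alpha genes were higher with Co in most libraries, without passing the test. The first alpha gene had 82.2, 172, 86.7, 75.0, 74.2, 88.9 and 64.2 CPM in the 7 Co libraries, and a lowest, median and highest value of 24.8, 47.8 and 115 in the 8 Ta libraries. The second alpha gene had 38.9, 75.3, 29.2, 25.1, 26.7, 41.2 and 22.9 CPM with Co, and 9.28, 18.5 and 35.03 with Ta. For each alpha gene, 2 of the 8 Ta libraries lay inside the Co range and the other 6 below it. The log2 fold changes were 0.80 ± 0.30 (SE, n = 7 and 8; unadjusted p = 0.0173, edgeR adjusted p = 0.570) and 0.92 ± 0.31 (unadjusted p = 0.00952, adjusted p = 0.492), or a 95% interval of 0.16 to 1.43 and 0.26 to 1.58.
Hbb had 451, 65.4, 38.9, 72.5, 51.5, 88.0 and 26.9 CPM with Co, and 11.8, 33.9 and 221 (lowest, median, highest) with Ta, a log2 fold change of 0.85 ± 0.71 (adjusted p = 0.999). Leaving out 1 library moved Hbb from -0.20 ± 0.57 (without replicate 1 of Co, adjusted p = 0.893) to 1.44 (without replicate 4 of Ta, adjusted p = 0.740). The alpha genes ran from 0.58 and 0.65 without replicate 2 of Co to 1.05 and 1.08 without replicate 4 of Ta. Without replicate 1 of Co they stood at 0.81 ± 0.31 and 0.89 ± 0.32 (adjusted p = 0.320 and 0.297). The 3 members had a median log2 fold change of 0.85 here, beside 0.0046 over all genes. Under the alternatives the adjusted p of the first alpha gene ran from 0.0173 to 1.0 and that of the second from 0.0364 to 1.0, and 1 of 7 alternatives, voom with quality weights, passed for each.

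At 12 months Co and Ta were close in the alpha genes. The first alpha gene had 24.9, 48.3 and 109 CPM with Co (lowest, median, highest) and 26.1, 52.1 and 81.4 with Ta, a log2 fold change of 0.15 ± 0.27 (SE, n = 8 and 8; edgeR adjusted p = 0.833, 95% interval -0.42 to 0.72). The second had 13.6, 20.04 and 42.9 against 12.2, 22.6 and 33.7, and 0.06 ± 0.26 (adjusted p = 0.932, -0.49 to 0.62). Hbb had 10.9, 43.9 and 96.8 with Co and 11.7, 24.1 and 79.4 with Ta, and 0.66 ± 0.44 (adjusted p = 0.509, -0.27 to 1.60). The Hbb median was higher with Co, and the range of Ta lay inside that of Co.

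**Figure D4:**
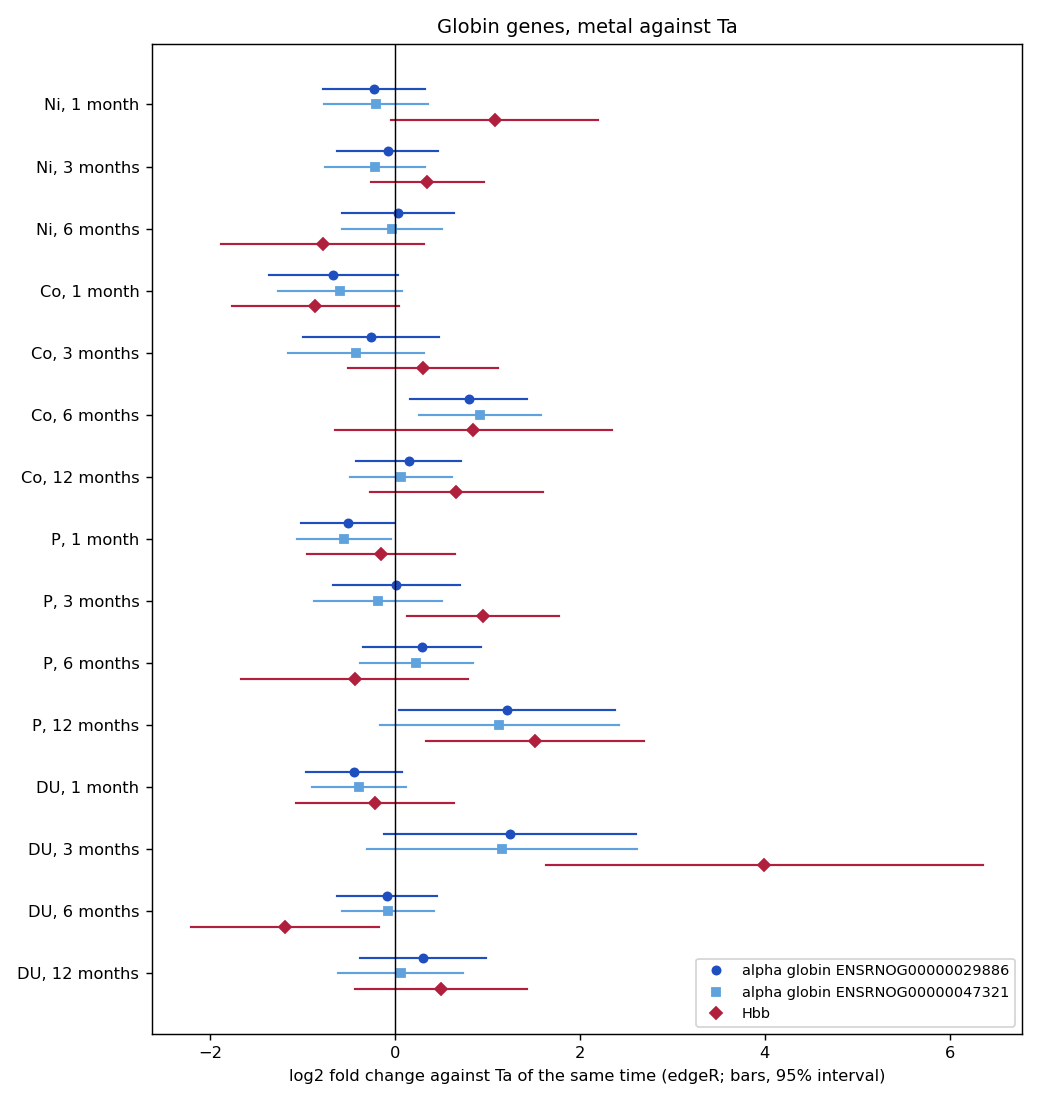
Log2 fold change of each globin gene against Ta of the same time for Ni, Co, P and DU, with edgeR's 95% interval as bars. Most intervals cross 0, and 9 of the 45 do not. Among these are both alpha genes for Co at 6 months (0.16 to 1.43 and 0.26 to 1.58). The others belong to P (alpha genes and Hbb) and DU (Hbb) and lie on both sides of 0. None of the 45 passed at an adjusted p under 0.05.

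Cobalt was next set against the other metals of the same time, which asks whether its globin level differed from that with an active metal. Of 33 member tests 1 was called, Hbb against DU at 3 months, and 11 had an unadjusted p under 0.05. The share of all genes called was 29.1%, 17.5% and 12.2% against P, DU and Ni at 3 months, 7.66% and 7.91% against P and DU at 1 month, 0.0572% against P at 12 months, 0.00813% against DU at 6 months, and 0% against Ni at 1 and 6 months, P at 6 months and DU at 12 months. In those 4, edgeR gave 1017 to 3235 genes an unadjusted p under 0.05, DESeq2 called 6 to 910 and voom 0 to 492. The Hbb call was a log2 fold change of -3.62 ± 1.12 (SE, n = 8 and 8; edgeR adjusted p = 0.0372), with 8.92, 32.4 and 70.3 CPM for Co and 21.1, 37.8 and 2774 for DU. Without replicate 2 of DU it was -0.56 ± 0.48 (adjusted p = 0.372), and without replicate 2 of Co, the lowest, it was -3.47 ± 1.2 (adjusted p = 0.0751).

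At 6 months Co stood above all 3 of the other active metals in each globin gene. Against DU, whose first alpha gene had 35.7, 48.6 and 70.4 CPM (lowest, median, highest), the log2 fold change was 0.88 ± 0.21 (SE, n = 7 and 8; unadjusted p = 0.00058, edgeR adjusted p = 0.376). The second alpha gene, at 13.4, 18.3 and 25.8 CPM with DU, gave 0.99 ± 0.24 (unadjusted p = 0.000676, adjusted p = 0.376). Hbb, at 20.6, 28.9 and 35.6 with DU, gave 2.02 ± 0.51 (unadjusted p = 0.00106, adjusted p = 0.376), and 0.98 ± 0.21 (adjusted p = 0.187) without replicate 1 of Co. The ranges of Co and DU overlapped in all 3 genes.
Against Ni the alpha genes gave 0.76 ± 0.25 and 0.94 ± 0.26 (edgeR adjusted p = 0.214 and 0.162; DESeq2 called the second, adjusted p = 0.0272) and Hbb 1.62 ± 0.55 (adjusted p = 0.236), which was 0.57 ± 0.33 without replicate 1 of Co. Against P the values were 0.51 ± 0.26, 0.70 ± 0.29 and 1.28 ± 0.62 (adjusted p = 0.387, 0.318 and 0.363), and Hbb was 0.25 ± 0.46 without that library. These comparisons share the Co libraries with each other and with the comparison against Ta, so they are not separate observations of a high Co group. Among all 5 metals at 6 months the F test called none of the 3 genes (edgeR adjusted p = 0.296, 0.222 and 0.251), beside 0.0542% of all genes.

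At 1 month the largest difference of Co from an active metal was in Hbb against Ni, -1.91 ± 0.54 (SE, n = 8 and 8; unadjusted p = 0.00237, edgeR adjusted p = 0.110), where Hbb had 8.29, 18.9 and 57.0 CPM with Co and 28.2, 67.4 and 313 with Ni. It passed in 2 of 7 alternatives, DESeq2 (adjusted p = 0.00932) and all libraries in 1 model (0.0149). At 12 months the alpha genes stood at -1.08 ± 0.56 and -1.08 ± 0.61 against P (adjusted p = 0.635 and 0.675), and at -0.10 ± 0.32 and 0.11 ± 0.31 without replicate 5 of P.

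Among the other metals the largest rises over Ta were in DU at 3 months and P at 12 months, and each shrank without 1 library. In DU at 3 months the log2 fold changes were 1.24 ± 0.65, 1.16 ± 0.69 and, for Hbb, 4.00 ± 1.12 (SE, n = 8 and 8; edgeR adjusted p = 0.229, 0.290 and 0.0746). Without replicate 2 they were -0.18 ± 0.27, -0.47 ± 0.28 and 0.88 ± 0.40 (adjusted p = 0.669, 0.267 and 0.147). Voom with quality weights called the second alpha gene lower (-0.78, adjusted p = 0.0119). In P at 12 months they were 1.21 ± 0.55, 1.13 ± 0.60 and 1.52 ± 0.55 (adjusted p = 0.257, 0.352 and 0.165), and 0.25 ± 0.27, -0.05 ± 0.27 and 0.78 ± 0.39 without replicate 5. In P at 12 months Hbb had 23.0, 61.1 and 334.5 CPM (lowest, median, highest) and the first alpha gene 35.4, 59.3 and 554 beside a Ta median of 52.1.
Hbb differed from Ta in 2 other groups at an unadjusted p under 0.05. In DU at 6 months Hbb had a narrow range, 20.6, 28.9 and 35.6 CPM, beside 11.8, 33.9 and 221 with Ta, a log2 fold change of -1.18 ± 0.48 (edgeR adjusted p = 0.353), and 2 Ta libraries at 221 and 128 CPM lay above every DU library by over 3-fold. Those 2 had TMM factors of 0.559 and 0.655. Per total counts they had 124 and 84.1 CPM, and the highest DU library 39.9. In P at 3 months Hbb had 18.6, 40.01 and 124 CPM against 11.6, 29.6 and 41.3, and 0.95 ± 0.39 (adjusted p = 0.152). Ni at 1 month gave Hbb 1.08 ± 0.53 (adjusted p = 0.411), with alpha genes at -0.23 ± 0.26 and -0.21 ± 0.27. P at 1 month gave the alpha genes -0.51 ± 0.24 and -0.55 ± 0.24 (unadjusted p = 0.0476 and 0.0377, adjusted p = 0.604 and 0.595).

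Taken across the metals at one time, F tests called 3 of 12 member tests, and each call was lost when 1 library was left out. Hbb was called at 1 month (edgeR adjusted p = 0.0229), where 19.2% of all genes were. Its medians ran from 18.9 CPM with Co and 28.4 with DU through 35.02 with P and 36.8 with Ta to 67.4 with Ni. The adjusted p was 0.190 without replicate 3 of Ni, at 313 CPM, and 0.0525 without replicate 3 of Co, at 8.29 CPM. At 3 months, where 36.3% of all genes were called, Hbb (adjusted p = 1.5e-05) and the first alpha gene (0.0449) were called and the second was not (0.0547). Without replicate 2 of DU these were 0.188, 0.872 and 0.659, and without replicate 2 of Co that of the first alpha gene was 0.0688. At 12 months none was called (0.283, 0.319 and 0.283), beside 1.36% of all genes.

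The second alpha gene was lower at later times after surgery with Ni. F tests over the times within a metal called 6 of 15 member tests. With Ni, where 18.2% of all genes were called, the second alpha gene had a lowest, median and highest library of 20.9, 36.4 and 62.0 CPM at 1 month, 18.0, 24.9 and 38.9 at 3 months and 13.2, 18.8 and 30.0 at 6 months. Its mean fell from 37.0 ± 12.1 to 27.7 ± 8.24 and 19.5 ± 5.87 CPM (SD, n = 8 each; edgeR adjusted p = 0.0144). The adjusted p was 0.024 without replicate 3 at 1 month, the highest library, and 0.0336 without replicate 1 at 6 months, the lowest. Means of the first alpha gene were 86.0 ± 24.2, 66.9 ± 17.3 and 54.9 ± 19.8 CPM (adjusted p = 0.0556). Hbb was called in Ni (adjusted p = 0.0219), with medians of 67.4, 30.3 and 37.4 CPM, and at 0.085 without replicate 3 at 1 month.
With Ta, where 35.3% of all genes were called, the second alpha gene had means of 42.9 ± 23.1, 32.1 ± 13.8, 19.8 ± 9.13 and 24.1 ± 7.62 CPM at 1, 3, 6 and 12 months (SD, n = 7, 8, 8 and 8; edgeR adjusted p = 0.0166). For the first alpha gene they were 101 ± 52.8, 70.3 ± 30.8, 53.1 ± 28.8 and 54.4 ± 16.9 CPM (adjusted p = 0.0435). Both calls were lost without replicate 8 at 1 month, which had 215 and 94.4 CPM (adjusted p = 0.179 for the first and 0.052 for the second), and that of the first also without replicate 1 at 6 months (0.0539). Hbb was not called in Ta (0.0983).

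Cobalt did not follow that course in the alpha genes, though the difference in course did not pass in the main fit. With Co the first alpha gene had means of 63.9 ± 29.6, 58.5 ± 30.0, 91.9 ± 36.3 and 59.8 ± 27.7 CPM at 1, 3, 6 and 12 months (SD, n = 8, 8, 7 and 8; edgeR adjusted p = 0.310) and the second 28.6 ± 13.6, 23.7 ± 13.9, 37.0 ± 18.2 and 24.99 ± 11.5 (adjusted p = 0.395). Hbb was called within Co (adjusted p = 0.0112, beside 39.1% of all genes), with medians of 18.9, 32.4, 65.4 and 43.9 CPM, and at 0.201 without replicate 1 at 6 months. Within P, where 12.3% of genes were called, none of the 3 was (0.266, 0.228 and 0.391). Within DU, where 7.39% were, Hbb was called (0.000911, and 0.605 without replicate 2 at 3 months) and the alpha genes were not (0.0754 and 0.0571).
Whether a metal changed over time differently from Ta was tested as an interaction of metal and time, and 1 of 12 member tests was called. Under the alternatives, each alpha gene passed for Co in 1 of 7. For Co the adjusted p in the main fit was 0.199 and 0.134 for the alpha genes (unadjusted p = 0.021 and 0.00991) and 0.463 for Hbb, beside 3.37% of all genes. For P it was 0.149, 0.174 and 0.168, beside 2.83%, and for Ni 0.930, 0.947 and 0.378, where 0% of genes were called by edgeR, DESeq2 called 4 and voom 0, and 1589 had an unadjusted p under 0.05 with edgeR. For DU Hbb was called (adjusted p = 0.00199, beside 14% of all genes), and its adjusted p was 0.0853 without replicate 2 at 3 months.

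Of the 11 globin calls in all these tests, 1 passed both without the highest and without the lowest library, the difference of the second alpha gene among times in Ni. Without the lowest library 7 of the 11 passed. Over the 7 other settings of scaling, filter, tool and model, that difference in Ni passed in 6 and was not called with all libraries in 1 model (adjusted p = 0.191). The difference of the second alpha gene among times in Ta also passed in 6 of 7 (0.107 in that model). Hbb in Ni and Hbb in the DU interaction passed in 5, and the first alpha gene in Ta in 4, with highest adjusted p-values of 0.180, 0.316 and 0.142. The other Hbb calls, against DU, among metals at 1 and 3 months and over time in Co and DU, passed in 4 of 7, with highest values of 0.158 to 0.967. The first alpha gene among metals at 3 months passed in 2 of 7.

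**Figure D5:**
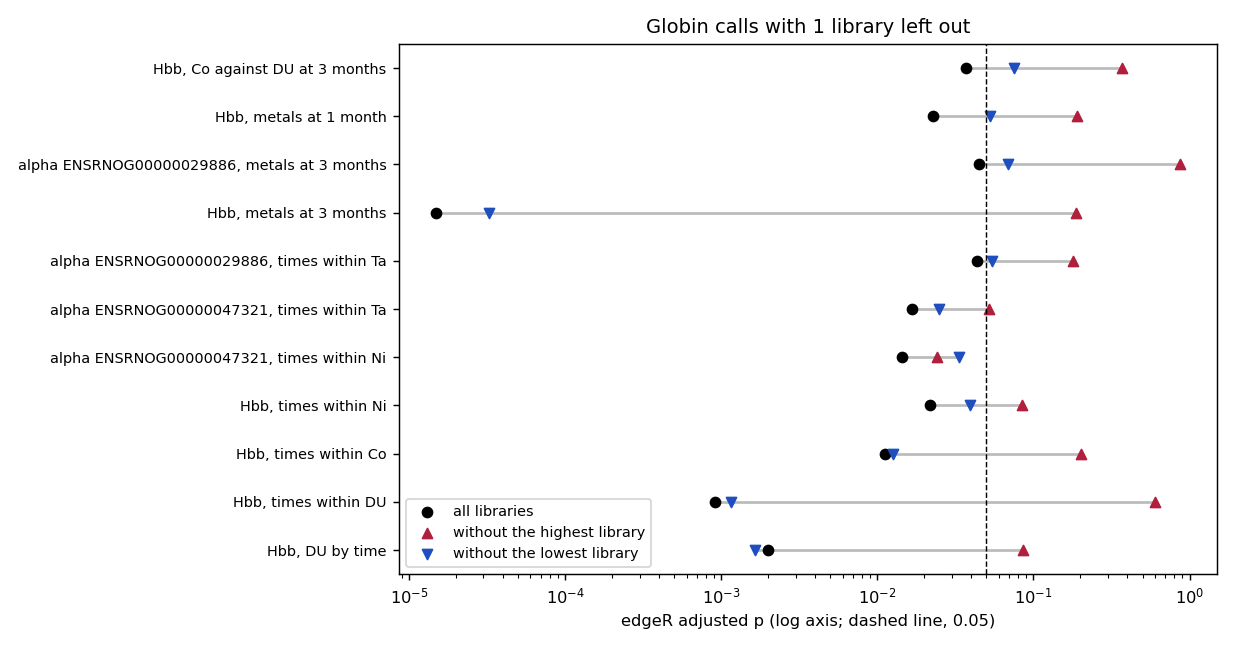
The edgeR adjusted p of each of the 11 globin calls with all libraries, without the library highest in that gene and without the lowest, on a log axis; the dashed line is 0.05. Most red points lie to the right of the line, and the second alpha gene over time in Ni is the row with all 3 points to its left.

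Likeness was the Pearson r with the mean deviation of the 3 members from their group means, over 150 libraries and 12252 other genes with a mean of at least 1 CPM. ENSRNOG00000061299 was closest, with r = 0.95, and 0.98 with Hbb alone against 0.86 and 0.87 with the alpha genes. It had a lowest, median and highest library of 4.15, 21.8 and 1315 CPM, and the highest was replicate 2 of DU at 3 months. In replicate 1 of Co at 6 months it had 304 CPM against 24.4 to 69.3 in the other libraries of the group, so it was high in the same library as Hbb. ENSRNOG00000054582 came next, with r = 0.87, and had 0.12, 1.32 and 92.0 CPM. In replicate 5 of P at 12 months it had 18.4 CPM against 0.708 to 4.53, and the first of these genes had 183 against 12.5 to 49.1. Without the DU and the Co library, r was 0.95 and 0.84. An r over 0.5 was reached by 659 of the 12252 genes (487 without those 2 libraries), over 0.7 by 6 (3 without them) and over 0.9 by 1. No source used here gives these identifiers a name, and genes nearly identical in sequence to a member could share its reads.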

How the data were processed

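Globin transcripts were described in RNA-seq libraries of rat gastrocnemius muscle. The deposited values are raw counts per gene, with no normalization by the authors. Per the submitters' processing notes, the tools were HISAT2 2.0.5 and featureCounts 1.5.0-p3 and the build Rnor_6.0. Per the labels' protocols, a stranded total RNA kit was used. Not given in the sources used here are the annotation release, the strand setting, the handling of reads that match several genes and any removal of globin message. Columns were matched to libraries by label, and 0 columns were left unused.

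Each comparison used its own groups: filterByExpr, TMM factors, glmQLFit (robust) and glmQLFTest of edgeR 4.0.16 (R 4.3.3), with Benjamini-Hochberg adjustment over all genes tested and a threshold of 0.05. The SE is the log2 fold change over the square root of F. Levels in CPM took their TMM factors from all 150 libraries together; for log2 CPM the prior count was 2. The test was checked on simulated data. No 2 libraries of a group matched within sampling noise (lowest chi-square per degree of freedom 11.5 over 518 pairs). The fixed alternatives were RLE size factors, library totals, no filter, DESeq2 1.42.0, limma 3.58.1 voom with quality weights, all libraries in 1 model, the replicate number as a block, leaving out 2 libraries, and leave-one-out for Co against Ta. Chosen after seeing the data were fits without the highest or lowest library of a call, and without replicate 5 of P at 12 months. Same-numbered libraries deviated together in all 8 pairs for Co against Ta at 3 months, with r from 0.109 to 0.426 and a median of 0.163. No other 2-group comparison had a lowest r as high. Every pair was also positive for DU against Ta at 3 months (lowest r 0.0032) and Co against P at 6 months (lowest r 0.0016). Some had a higher median, such as P against Ta at 3 months (0.311). The labels do not say that a replicate number marks a shared animal, cage or day, so the main fits did not pair the libraries. The replicate block is given only as an alternative.

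The members and gene lists were chosen with earlier results of these data known. By the rule for named genes, the 3 members and the 2 genes most like them are named. No table paired identifiers with symbols, so lists of red cell, haem, hypoxia and cell type genes, the check of the tissue against its markers and the alpha genes' symbols were not analysed here.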

Additional observations from a re-analysis of the deposited data

Results flagged for a closer look

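In 7 of the 57 sets tested (3 genes in 19 groups), 1 library stood apart from the rest of its group on the log scale. For a normal spread on that scale, chance gives about 1 set in 20. The 57 sets are not independent, since the 3 genes were measured in the same libraries and moved together. Replicate 2 of DU at 3 months stood apart in all 3. The 7 sets are therefore not 7 separate libraries, and their number cannot be set against that rate. For the first alpha gene (ENSRNOG00000029886), replicate 2 of Co at 6 months had 172 CPM against 64.2 to 88.9 in the others, and replicate 2 of DU at 3 months had 800.0 against 48.3 to 96.7. For the second alpha gene (ENSRNOG00000047321), replicate 8 of Ta at 1 month had 94.4 CPM against 29.7 to 42.3, replicate 5 of P at 12 months 256 against 13.7 to 48.6, and replicate 2 of DU at 3 months 367 against 14.2 to 37.2. For Hbb, replicate 1 of Co at 6 months had 451 CPM against 26.9 to 88.0, and replicate 2 of DU at 3 months 2774 against 21.1 to 124. All 7 were high, none low.

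The course of Hbb over time differed between DU and Ta (interaction, edgeR adjusted p = 0.00199), and the adjusted p was 0.0853 without replicate 2 of DU at 3 months.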

How the results depend on the processing

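Of 45 globin tests against Ta, 0 passed with edgeR, 4 with voom and 3 with all libraries in 1 model. Of 33 tests of Co against another metal 1 passed, beside 2 with DESeq2, 4 with all libraries in 1 model, 0 with voom, 0 with the replicate block and 0 without replicate 2 of DU at 3 months and replicate 1 of Co at 6 months. Among metals 3 of 12 passed, beside 1 with voom, 0 with the replicate block and 1 without those 2 libraries. The number of all genes called moved with the setting too. Among metals at 3 months it was 4811 of 13267 in the main fit, 7433 with voom and 3879 with the block. Without those 2 libraries it was 5754 of 13391. Among metals at 1 month it was 2588 of 13453 in the main fit, 937 with voom and 1174 with the block. For interactions 1 of 12 passed, beside 3 with voom, 0 with the replicate block and 0 without those 2 libraries. Over times 6 of 15 passed, and 4 to 7 under the alternatives. In Co against Ta at 3 months the replicate block changed no globin call (-0.28, -0.49 and 0.13, with edgeR adjusted p = 0.551, 0.294 and 0.778). Over all 12429 genes tested there, the block left 1 call, beside 801 in the main fit. What a shared number marks is not given in the labels.

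Log2 fold changes given in the text that changed sign were as follows. With DESeq2 these were Hbb for Co against Ta at 6 months (-0.24), the second alpha gene for Co against DU at 3 months (0.06), P against Ta at 12 months (-0.05) and Co against P at 12 months (0.11), and both alpha genes for DU against Ta at 3 months (-0.17 and -0.43). With voom they were the first alpha gene for Co against DU at 3 months (0.01), the second there (0.11) and for Co against Ta at 12 months (-0.03), and both for DU against Ta at 3 months (-0.48 and -0.78). By library totals it was the first alpha gene for Co against Ta at 3 months (0.07), and with the replicate block the second for DU against Ta at 3 months (-0.16). Without replicate 2 of DU at 3 months the alpha genes stood at -0.18 and -0.47 for DU against Ta and the second at 0.07 for Co against DU, and without replicate 1 of Co at 6 months Hbb stood at -0.20 for Co against Ta. Without replicate 5 of P the second alpha gene stood at -0.05 for P against Ta and 0.11 for Co against P at 12 months. Leaving out each library in turn for Co against Ta, Hbb at 6 months ran from -0.20 to 1.44, and at 12 months the first alpha gene from -0.05 to 0.26 and the second from -0.10 to 0.16. The cause was not tested. Each globin gene had at least 145 counts in every library.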
